A study of Homo sapiens with 12 samples.

Results

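The AP-1 transcription factor genes are FOS, FOSB, FOSL1, FOSL2, JUN, JUNB, JUND, ATF3 and JDP2, and they were taken by symbol. All 9 were found in each of 12 RNA-seq libraries, among 19907 gene symbols, and all 9 were among the 18579 genes that passed the filter on low values (at least 10 reads summed over the libraries). The libraries were made from MDA-MB-231, an established human triple-negative breast cancer (TNBC) cell line. In S134A-GR cells, both alleles of NR3C1, the glucocorticoid receptor (GR) gene, carry a CRISPR knock-in that replaces Ser134 with alanine. The wt-GR cells are a non-targeted clone recovered from the same procedure, so each genotype is 1 clone (clone #1 for S134A-GR), and the mutation cannot be told apart from other differences between the clones. Before treatment both lines spent 18 h in IMEM with 1% DCC, a steroid-stripped serum, and treatment was vehicle or TGFβ1 (10 ng/mL) and lasted 6 h. Of the 4 groups (wt-GR vehicle, wt-GR TGFβ1, S134A-GR vehicle and S134A-GR TGFβ1), each had 3 replicates. The labels do not say that replicates came from separate cultures, so the p-values measure the spread between these libraries, which may be technical. The study asked how TGFβ1 acts on TNBC cells when Ser134 of GR is mutated.

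AP-1 is a family of dimers of basic leucine zipper (bZIP) proteins. JUN proteins pair with one another or with FOS proteins, whereas FOS proteins need a JUN partner to bind DNA. Many of the genes are induced within minutes by growth factors and stress through MAP kinases, and their dimers then switch on genes of migration, proteolysis and inflammation. TGFβ1 signals through SMAD proteins, which cooperate with AP-1 at many promoters. GR is known to bind AP-1 proteins and to restrain or redirect their activity. In mesenchymal-like TNBC cells, FOSL1 (also called Fra-1) is known as an abundant AP-1 subunit that drives invasion.

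RefSeq (GRCh38.p14) held promoter entries for 8 of the 9 genes. FOSL1 had none, so its promoter was not searched. JUN, JUNB and FOSB were called higher with TGFβ1 in wt-GR cells, while FOS, the sister gene of FOSB, was not called. The FOSB call held in 20 of 22 alternative settings, and FOS and FOSB were not tested against each other. For JUN, JUNB, FOS and FOSB the 250 bases before the annotated start are therefore given. Each is written 5′ to 3′ on the strand of its gene, and capitals mark matches on either strand to TGACG (part of a cyclic AMP response element), TGACATCA (the AP-1 site of the JUN promoter), TATAAA (the core promoter box) and CAGAC (a SMAD box). Their positions are chr1:58784048-58784297 (minus strand) for JUN, chr19:12791236-12791485 (plus) for JUNB, chr14:75278578-75278827 (plus) for FOS and chr19:45467746-45467995 (plus) for FOSB.
JUN: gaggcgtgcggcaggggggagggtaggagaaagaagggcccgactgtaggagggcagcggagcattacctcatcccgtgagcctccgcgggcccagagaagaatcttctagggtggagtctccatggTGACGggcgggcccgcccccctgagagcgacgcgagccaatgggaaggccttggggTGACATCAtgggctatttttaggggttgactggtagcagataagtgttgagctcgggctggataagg
JUNB: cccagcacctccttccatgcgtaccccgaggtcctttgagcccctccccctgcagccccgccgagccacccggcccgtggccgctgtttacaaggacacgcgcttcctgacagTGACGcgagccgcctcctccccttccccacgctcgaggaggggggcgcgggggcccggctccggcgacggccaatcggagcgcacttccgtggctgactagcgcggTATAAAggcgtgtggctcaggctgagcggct
FOS: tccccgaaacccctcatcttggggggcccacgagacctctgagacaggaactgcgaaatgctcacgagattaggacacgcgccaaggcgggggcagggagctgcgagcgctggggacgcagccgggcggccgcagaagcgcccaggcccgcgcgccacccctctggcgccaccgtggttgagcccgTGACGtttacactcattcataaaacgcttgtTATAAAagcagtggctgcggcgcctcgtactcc
FOSB: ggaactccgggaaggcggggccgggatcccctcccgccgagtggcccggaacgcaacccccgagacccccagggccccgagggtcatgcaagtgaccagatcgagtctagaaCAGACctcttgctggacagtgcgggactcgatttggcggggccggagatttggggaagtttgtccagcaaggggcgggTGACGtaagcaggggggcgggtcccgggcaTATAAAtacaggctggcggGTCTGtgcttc

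The FOS and FOSB promoters placed the same pair of matches at nearly the same distance from the start. TGACG began 64 bases before it in FOS and 60 in FOSB, and TATAAA began 33 and 30 bases before it. In JUNB these matches began at 137 and 31 bases, and JUN had TGACG at 123 and TGACATCA at 67 with no TATAAA. Of 35116 RefSeq promoters, 21.2% held TGACG and 10.7% held TATAAA in the same window on either strand, while 2.37% held TGACATCA, which was found in JUN and ATF3. CAGAC was found in FOSB, FOSL2, ATF3 and JDP2 and in 38.0% of all promoters. TGACG was present in 7 of the 8 genes with an entry (FOS, FOSB, FOSL2, JDP2, JUN, JUNB and JUND). The full element TGACGTCA, which contains TGACG, was present in JUND and in 1.65% of all promoters. The classical AP-1 site TGACTCA was found in none of the windows of these 8 genes and in 4.20% of all promoters. AGAACA, part of the GR element, was found in FOSB and in 12.4% of all promoters. These are matches of letters in a short window and not measured binding.

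In every library every deposited value was a whole number of steps of 1 size (within 0.01 of a whole read), which gave the reads behind them. They summed to between 56.4 and 129.8 (in units of 1e6 reads) per library, above the average depth that the labels give, and whether read mates were counted separately is not given in the sources used here. A floor of 3 reads corresponded to at most 4.89 normalized counts, and it covers counting error only. The fewest reads behind any value of these 9 genes were 24, for FOSB in wt-GR vehicle replicate 1, which was also the smallest library and gave the lowest value of its group for 7 of the 9 genes. NR3C1 RNA itself was lower in S134A-GR than in wt-GR cells (log2 fold-change −0.41 under vehicle and −0.31 under TGFβ1, adjusted p = 0.00012 and 0.00134 by limma). By western blot, the study reports that total GR protein was equal across its lines. A point mutation gives no check of the labels by level. Of markers of the line, VIM was between 419832 and 533198 normalized counts and ESR1 between 0 and 7.32, while ERBB2 was detected at 7229 to 10589. Of 5 markers of other cell types in the files (6 listed), PTPRC and CDH1 stayed below 13 normalized counts. CD68 was higher (log2 fold-change 0.56 under vehicle) and EPCAM lower (−1.44) in S134A-GR cells. PECAM1 was lower as well (−0.25). The summed level of the 5, most of it CD68, ranged from 30198 to 30648 in wt-GR vehicle, 28748 to 29749 in wt-GR TGFβ1, 42192 to 44312 in S134A-GR vehicle and 40203 to 43424 in S134A-GR TGFβ1. Without CD68 the order of the lines was the opposite, at 2271 to 2483, 1952 to 2169, 1455 to 1627 and 1081 to 1254 in the same groups. Their part in the results was not tested.

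To set the genes beside one another, normalized counts were divided by the merged exon length of each gene in kb (GENCODE v44, GRCh38). On this scale of level, FOSL1, JUN and JUND were the 3 highest in wt-GR cells under vehicle, at 16060 ± 436, 8338 ± 275 and 3591 ± 446 per kb (SD, n = 3). FOSL2 followed at 2512 ± 68.4 and JUNB at 1416 ± 175. ATF3, JDP2, FOS and FOSB lay far below, at 181 ± 14.6, 129 ± 10.0, 70.8 ± 1.78 and 11.2 ± 4.09 per kb. FOSL1 therefore held 86.1% ± 0.616 of the summed FOS family level (FOS, FOSB, FOSL1 and FOSL2), while FOS and FOSB together held 0.439% ± 0.0225. Under TGFβ1 the order at the top changed. In wt-GR cells JUN reached 11749 ± 170 per kb and FOSL1 fell to 10539 ± 77.2, and JUNB, at 5685 ± 214, passed JUND at 3665 ± 263 and FOSL2 at 1927 ± 42.8. In S134A-GR cells under TGFβ1, JUN was at 11502 ± 448, FOSL1 at 8130 ± 643, and JUNB (3216 ± 168) and JUND (3531 ± 172) differed by less than the sum of their SDs.

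**Figure D1:**
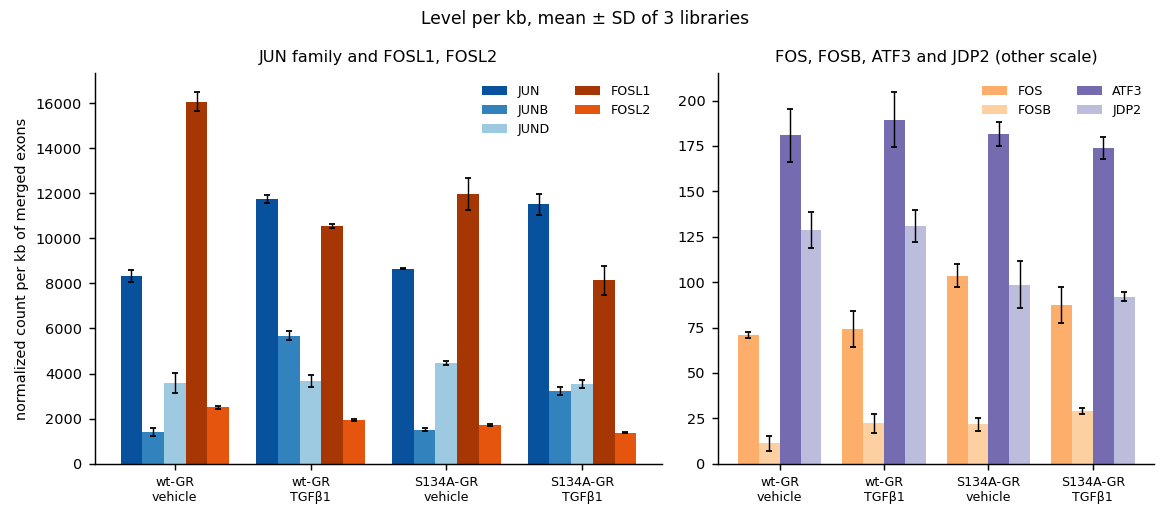
Normalized counts per kb of merged exons (mean ± SD of 3 libraries) of the 9 genes in the 4 groups, with the 4 low genes on a separate linear scale. FOSL1 leads under vehicle (16060 in wt-GR, 11978 in S134A-GR) and JUN leads under TGFβ1 (11749 and 11502).

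The balance between the families moved in the same direction in both lines. The summed JUN family level over the summed FOS family level, per kb, was 0.715 ± 0.0367 in wt-GR vehicle and 1.68 ± 0.0493 in wt-GR TGFβ1, and it was 1.06 ± 0.0557 and 1.90 ± 0.0973 in S134A-GR cells. No 2 of these groups overlapped. The share of JUNB in the JUN family was 10.6% ± 0.618 in wt-GR vehicle and 10.3% ± 0.441 in S134A-GR vehicle, 2 groups that overlapped. Under TGFβ1 it was 26.9% ± 0.329 in wt-GR and 17.6% ± 0.958 in S134A-GR cells, with the lowest wt-GR library at 26.6% and the highest S134A-GR library at 18.7%. These ratios are descriptions and were not tested.

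Differences were tested by limma across all 18579 genes, on normalized counts plus 1 in log2 units, and a gene is called at a Benjamini-Hochberg adjusted p under 0.05 at any size. An exact permutation test of a single gene with 3 against 3 libraries cannot go below 0.1. The comparisons share libraries: the vehicle libraries of a line serve both the comparison of the lines and that of its treatment. In bulk RNA, fewer cells with a transcript and less of it per cell cannot be told apart. All libraries were taken after 6 h of treatment, so a change that came and went earlier was not measured.

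JUNB, a JUN family member known as an early TGFβ-SMAD target, rose with TGFβ1 in both lines and rose less in S134A-GR cells. Its gene lies on the plus strand of chromosome 19 (12791486 to 12793315) and has 1 exon. The wt-GR libraries held 2250, 2642 and 2883 normalized counts under vehicle and 10726, 10519 and 9968 under TGFβ1. The S134A-GR libraries held 2670, 2925 and 2683 under vehicle and 5643, 6233 and 5783 under TGFβ1. The vehicle groups of the lines overlapped, and the TGFβ1 groups overlapped neither with each other nor with vehicle. The rise was 4.03-fold in wt-GR cells (log2 fold-change 2.01, SE 0.0741, adjusted p = 1.69e-10 by limma) and 2.13-fold in S134A-GR cells (1.09, adjusted p = 1.24e-07). By size it ranked 69 of the 2086 genes that rose in wt-GR cells and 126 of the 1860 that rose in S134A-GR cells. The difference of the responses, S134A-GR minus wt-GR, was −0.92 (SE 0.105, 95% interval −1.14 to −0.69, adjusted p = 0.00164 by limma). It was called in all 21 alternative settings tried, with adjusted p-values from 1.06e-14 to 0.0427. Under TGFβ1, JUNB was 1.77-fold lower in S134A-GR than in wt-GR cells (log2 fold-change −0.82, adjusted p = 5.38e-07 by limma). Under vehicle the lines differed by 0.10 (95% interval −0.06 to 0.26, adjusted p = 0.301 by limma), which became a call at 0.18 without wt-GR vehicle replicate 3 (adjusted p = 0.0421 by limma). The study chose JUNB for a gene signature on these same libraries, so this difference is not independent evidence for it.

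JUNB shares 259 exon bases with HOOK2 on the opposite strand, and the strand setting of the counting is not given in the sources used here. HOOK2 was at 1170 ± 63.1 (SD, n = 3) normalized counts in wt-GR vehicle and 1147 ± 35.2 in wt-GR TGFβ1, and at 1551 ± 19.8 and 1329 ± 224 in S134A-GR cells. Its change with TGFβ1 was −0.03 in wt-GR and −0.24 in S134A-GR cells on the log2 scale, and neither was called (adjusted p = 0.883 and 0.102 by limma). HOOK2 was below the JUNB mean in every group.

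JUN, the founding member and the most abundant JUN family transcript here, rose with TGFβ1 in both lines. It lies on the minus strand of chromosome 1 (58776845 to 58784048). Its normalized counts in wt-GR cells were 29192, 30278 and 31182 under vehicle and 43290, 42256 and 42192 under TGFβ1. In S134A-GR cells they were 31362, 31396 and 31315 under vehicle and 40226, 41389 and 43432 under TGFβ1. Treated and untreated libraries did not overlap in either line, and between the lines the TGFβ1 groups overlapped while the vehicle groups did not. In wt-GR cells the log2 fold-change was 0.50 (SE 0.0349, adjusted p = 1.4e-07 by limma), and S134A-GR cells showed 0.41 (adjusted p = 1.23e-06). The responses differed by −0.09 (95% interval −0.19 to 0.02), and the lines by 0.05 under vehicle and −0.03 under TGFβ1, none of them called.

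JUND, usually the most constant JUN gene, was the one member that fell with TGFβ1 in S134A-GR cells while it was not called in wt-GR cells. It lies on the minus strand of chromosome 19 (18279694 to 18281622) and has 1 exon. Under vehicle its normalized counts were 5949, 7269 and 7562 in wt-GR and 8718, 8734 and 8393 in S134A-GR cells. Under TGFβ1 they were 7554, 7114 and 6544 in wt-GR and 6607, 6632 and 7193 in S134A-GR cells. The S134A-GR vehicle group stood above the other groups, which overlapped with one another. Under vehicle JUND was higher in S134A-GR cells (log2 fold-change 0.32, SE 0.0758, adjusted p = 0.00253 by limma), and TGFβ1 lowered it in those cells (−0.34, adjusted p = 0.00578). The change in wt-GR cells was 0.03. Between the responses JUND differed by −0.37 (95% interval −0.61 to −0.14), which was not called by limma (adjusted p = 0.253) but was by DESeq2 (adjusted p = 0.0478).

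**Figure D2:**
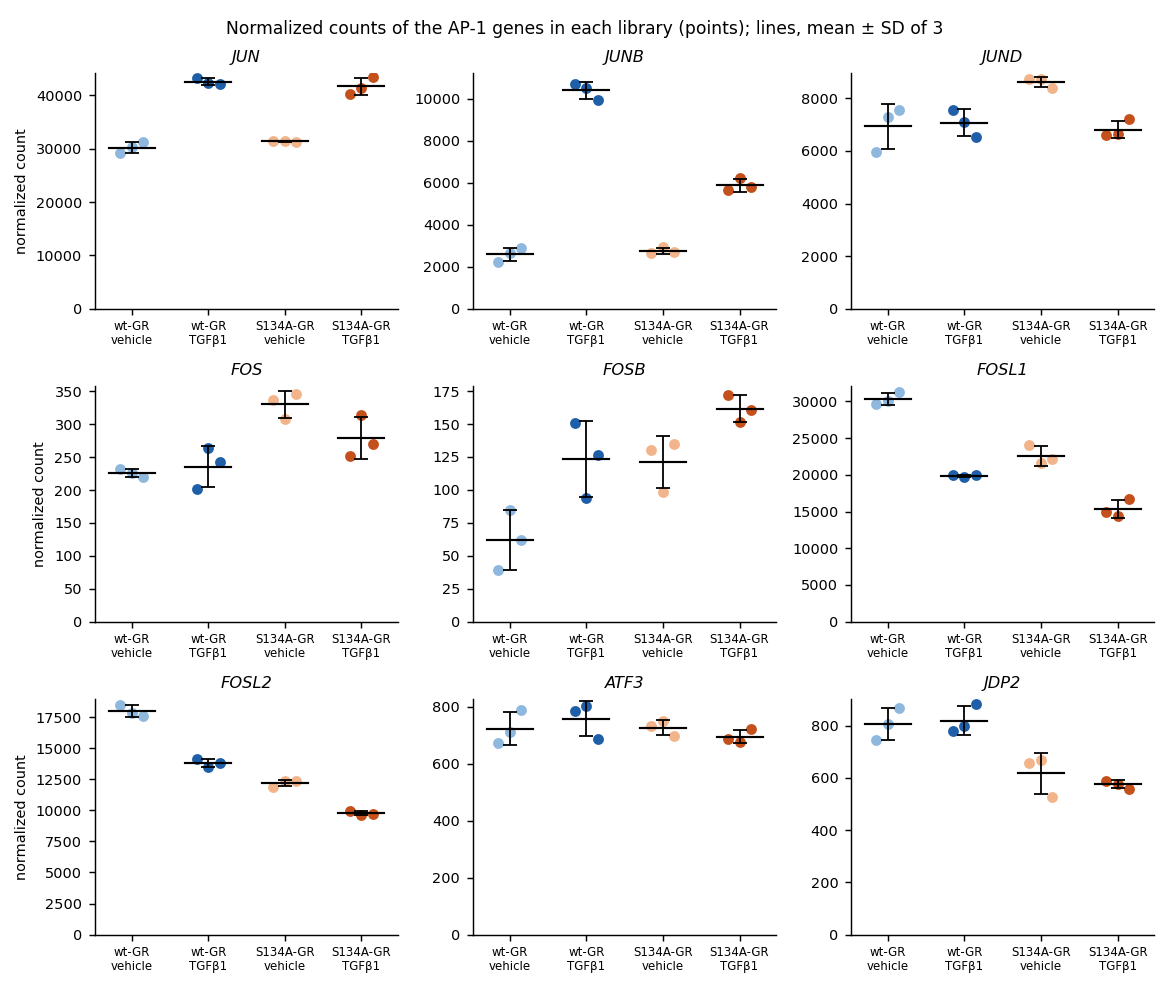
Normalized counts of the 9 genes in each of the 12 libraries (points), with the mean and SD of each group of 3 (lines), on linear axes from 0. JUNB under TGFβ1 lies between 9968 and 10726 in wt-GR and between 5643 and 6233 in S134A-GR libraries, and FOSL2 falls through 4 separate levels.

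FOSL1 and FOSL2, the Fra genes that carry nearly all of the FOS family level, fell with TGFβ1 in both lines and were lower in S134A-GR than in wt-GR cells under both treatments. FOSL1 lies on the minus strand of chromosome 11 (65892049 to 65900573). Its normalized counts in wt-GR cells were 29660, 30027 and 31232 under vehicle and 19971, 19718 and 19971 under TGFβ1. In S134A-GR cells they were 24122, 21545 and 22138 under vehicle and 14984, 14349 and 16693 under TGFβ1. The 4 groups did not overlap and followed the order wt-GR vehicle, S134A-GR vehicle, wt-GR TGFβ1 and S134A-GR TGFβ1. TGFβ1 lowered FOSL1 by 0.61 on the log2 scale in wt-GR cells (log2 fold-change −0.61, SE 0.0524, adjusted p = 1.15e-06 by limma) and S134A-GR cells showed −0.56 (adjusted p = 3.07e-06). The lines differed by −0.42 under vehicle and −0.38 under TGFβ1 (adjusted p = 1.03e-05 and 3.47e-05 by limma). The responses differed by 0.05 (95% interval −0.11 to 0.21), which was not called.

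FOSL2 lies on the plus strand of chromosome 2 (28392448 to 28417317). The wt-GR libraries held 18533, 17876 and 17575 normalized counts under vehicle and 14105, 13492 and 13810 under TGFβ1. Those of S134A-GR cells held 11895, 12366 and 12365 under vehicle and 9983, 9642 and 9733 under TGFβ1. Here too no group overlapped with another, but S134A-GR vehicle lay below wt-GR TGFβ1, the reverse of their order for FOSL1. The lines differed by −0.56 under vehicle (SE 0.0333, adjusted p = 8.59e-09 by limma), 1.47-fold lower in S134A-GR cells, and by −0.50 under TGFβ1 (adjusted p = 3.09e-08). TGFβ1 changed FOSL2 by −0.38 in wt-GR and −0.32 in S134A-GR cells (adjusted p = 1.27e-06 and 9.55e-06 by limma). Its responses differed by 0.06 (95% interval −0.04 to 0.16), not called.

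FOS and FOSB, the classical fast-induced members, were present at low levels and were the members that were higher in S134A-GR cells under vehicle together with JUND. FOS lies on the plus strand of chromosome 14 (75278826 to 75282230). Under vehicle its normalized counts were 231, 225 and 220 in wt-GR and 337, 307 and 346 in S134A-GR cells, groups that did not overlap. Under TGFβ1 they were 201, 264 and 242 in wt-GR and 252, 314 and 270 in S134A-GR cells, groups that did. Under vehicle FOS was 1.46-fold higher in S134A-GR cells (log2 fold-change 0.55, SE 0.121, adjusted p = 0.0016 by limma). Its difference between the lines under TGFβ1 was 0.24 (95% interval −0.02 to 0.50), and its change with TGFβ1 was 0.05 in wt-GR and −0.25 in S134A-GR cells, none of them called.

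FOSB lies on the plus strand of chromosome 19 (45467995 to 45475179) and was the member with the fewest reads. In wt-GR cells its normalized counts were 39.1, 84.5 and 62.1 under vehicle and 151, 93.7 and 126 under TGFβ1. In S134A-GR cells they were 130, 98.3 and 135 under vehicle and 172, 152 and 161 under TGFβ1. The wt-GR vehicle libraries were lower than those of every other group. Under vehicle FOSB was 2.01-fold higher in S134A-GR cells (log2 fold-change 1.01, SE 0.252, adjusted p = 0.00379 by limma), and TGFβ1 raised it 2.04-fold in wt-GR cells (1.03, adjusted p = 0.00944). That rise was no longer called without wt-GR TGFβ1 replicate 1 (0.87, adjusted p = 0.0518 by limma) or with only the 2 groups in the fit (1.03, adjusted p = 0.0683 by limma). The change in S134A-GR cells was 0.43 (95% interval −0.11 to 0.97) and was not called, although the groups did not overlap. Between the lines under TGFβ1, FOSB differed by 0.41 (95% interval −0.13 to 0.95), also not called and also without overlap. Its responses differed by −0.60 (adjusted p = 0.633 by limma), with a 95% interval of −1.37 to 0.16 that holds both 0 and the value of JUNB.

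ATF3, a stress-induced bZIP repressor that is also a known TGFβ target, was called in none of the 5 comparisons at 6 h. It lies on the plus strand of chromosome 1 (212565334 to 212620777). Its normalized counts in wt-GR cells were 671, 711 and 787 under vehicle and 784, 801 and 687 under TGFβ1. In S134A-GR cells they were 731, 748 and 697 under vehicle and 685, 677 and 722 under TGFβ1. All the groups that were compared overlapped. The 95% interval of its change with TGFβ1 was −0.10 to 0.24 in wt-GR and −0.23 to 0.11 in S134A-GR cells, and neither edgeR nor DESeq2 called it.

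JDP2, which pairs with JUN proteins and acts mostly as a repressor, was lower in S134A-GR cells under both treatments and was not called with TGFβ1. It lies on the plus strand of chromosome 14 (75427716 to 75474111), the chromosome of FOS, and shares 26 exon bases with an antisense gene. Under vehicle its normalized counts were 743, 806 and 869 in wt-GR and 657, 669 and 525 in S134A-GR cells. Under TGFβ1 they were 778, 797 and 884 in wt-GR and 590, 577 and 559 in S134A-GR cells. Every S134A-GR library was below every wt-GR library. The log2 fold-change between the lines was −0.39 under vehicle (SE 0.0957, adjusted p = 0.00333 by limma) and −0.51 under TGFβ1 (adjusted p = 0.000501). With TGFβ1 it changed by 0.02 in wt-GR and −0.09 in S134A-GR cells.

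**Figure D3:**
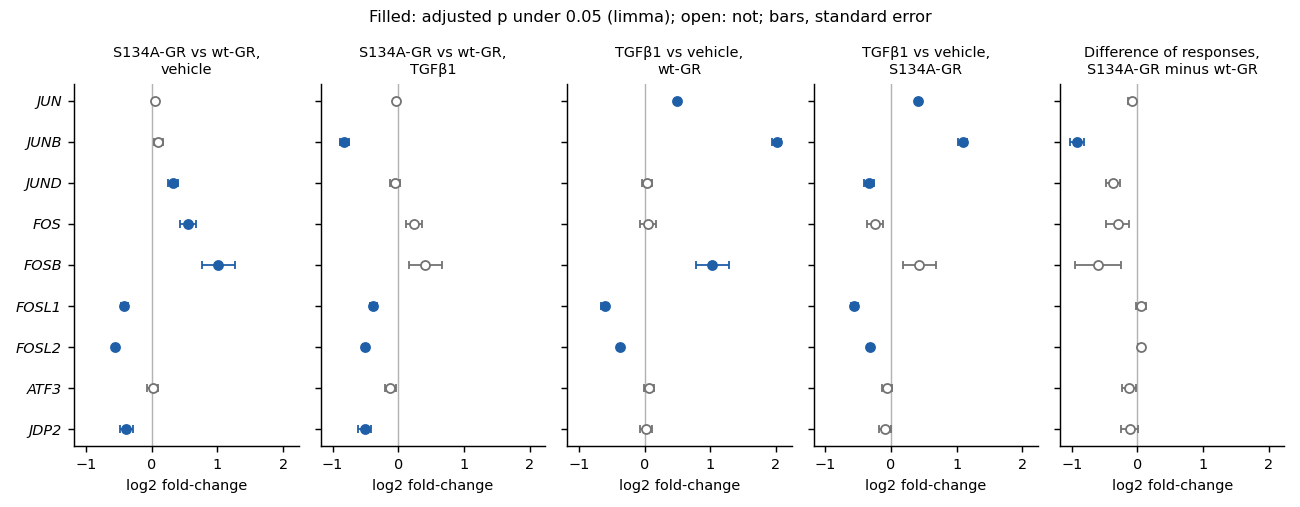
Log2 fold-changes (points) with standard errors (bars) of the 9 genes in the 5 comparisons, filled where the limma adjusted p was under 0.05. In the difference of responses only JUNB (−0.92) is filled.

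Counted over the 9 genes, the comparison of the lines under vehicle called 3 higher in S134A-GR cells (FOS, FOSB and JUND) and 3 lower (FOSL1, FOSL2 and JDP2), where 25.0% of all genes tested were called higher and 26.5% lower. Under TGFβ1 it called 4 lower (JUNB, FOSL1, FOSL2 and JDP2), where 25.7% of all genes were lower. It called 0 higher, where 23.1% were higher, and limma at an unadjusted p under 0.05, edgeR and DESeq2 also called 0. With so many genes differing between the clones, such counts are not particular to AP-1. TGFβ1 in wt-GR cells called 3 of the 9 higher (JUNB, FOSB and JUN), where 11.2% of all genes were higher, and 2 lower (FOSL1 and FOSL2), where 9.82% were lower. In S134A-GR cells 2 were higher (JUNB and JUN) and 3 lower (FOSL1, FOSL2 and JUND), where 10.0% of all genes were higher and 8.69% lower. The difference of the responses called 1 of the 9, JUNB, where 0.248% of all genes were lower and 0.167% higher. Of the 46 genes called lower in that comparison JUNB ranked 8 by size. It called 0 of the 9 higher, as did limma at an unadjusted p under 0.05, edgeR and DESeq2.

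JUNB and FOSB were the 2 members whose highest and lowest group means differed by at least 1 on the log2 scale. For each, the 3 genes with the most similar pattern were sought among 12467 others with a mean of at least 100 normalized counts, by the root-mean-square distance between log2 values centred on each gene's mean over the 12 libraries. The nearest to JUNB were C1orf106 at a distance of 0.170, SNAI1, a repressor of epithelial genes, at 0.187 and PIK3IP1, an inhibitor of PI3-kinase, at 0.194. The study's signature, chosen on these libraries, also holds all 3. With TGFβ1, C1orf106 changed by 1.63 in wt-GR and 1.00 in S134A-GR cells on the log2 scale, SNAI1 by 1.84 and 1.03, and PIK3IP1 by 1.68 and 1.17. These genes were chosen for their likeness to JUNB over the same libraries, which fixes the direction of their responses, so the values are a description with no test. The nearest to FOSB were farther away: C10orf55 at 0.267, LINC01560 at 0.274 and LOC101928710 at 0.277. C10orf55 overlaps PLAU on the opposite strand, and their reads cannot be told apart without strand.

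**Figure D4:**
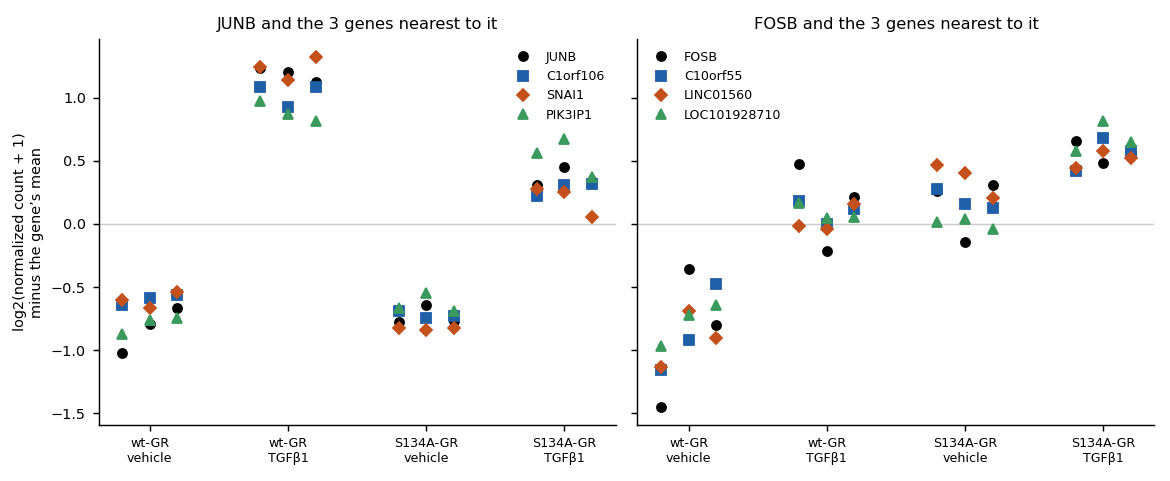
Log2(normalized count + 1) of JUNB (left) and FOSB (right) and of the 3 genes nearest to each, minus each gene's mean over the 12 libraries, by group; points are libraries. JUNB and its neighbours (distances 0.170 to 0.194) are highest in wt-GR TGFβ1, and FOSB and its neighbours (0.267 to 0.277) are lowest in wt-GR vehicle.

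Around these members, 20 classical AP-1 target genes (proteases, cytokines, adhesion genes and others with known AP-1 sites) were mostly lower in S134A-GR cells. The list was chosen with earlier results of these data known. Under vehicle 13 were called lower and 3 higher, with a median log2 fold-change of −0.427 against 0.019 over all genes, of which 26.5% were lower and 25.0% higher. Under TGFβ1 14 were lower and 2 higher (median −0.486 against 0.012), where 25.7% of all genes were lower and 23.1% higher. Called higher were MMP3, PLAU and TIMP1 under vehicle and MMP3 and TIMP1 under TGFβ1, while MMP10 was called in neither. MMP3 was at 75.9 ± 16.5 (SD, n = 3) normalized counts in wt-GR and 118 ± 2.07 in S134A-GR vehicle libraries. The largest differences, all lower in S134A-GR cells, were in collagenases and gelatinase. MMP9 was at 127 ± 9.29 (SD, n = 3) normalized counts in wt-GR and 23.8 ± 4.91 in S134A-GR vehicle libraries (log2 fold-change −2.39 under vehicle and −2.47 under TGFβ1). MMP1 differed by −1.71 and −1.52 and MMP13, with at most 35.9 normalized counts in a library, by −1.85 and −1.86. The angiogenic factor VEGFA differed by −0.98 under vehicle and was also called lower under TGFβ1, and the cytokine IL11 by −0.77 and −1.02. With TGFβ1, 11 of the 20 rose in wt-GR cells, and the same 11 genes rose in S134A-GR cells, where 11.2% and 10.0% of all genes rose. Among them were IL11 (1.22 and 0.98) and PLAU, the urokinase protease (1.12 and 0.58). TGFB1, the gene of the ligand, rose by 0.94 and 0.46, HMOX1 by 0.82 and 0.61 and ITGA2 by 0.68 and 0.60. CCND1 changed by −0.20 in wt-GR cells, a call, and by −0.08 in S134A-GR cells, which was not called. In total 0 of the 20 fell in S134A-GR cells, also by limma at an unadjusted p under 0.05, edgeR and DESeq2. Between the responses, a difference was called for PLAU (−0.54, adjusted p = 0.000909 by limma) and TGFB1 (−0.48, adjusted p = 0.0126 by limma), both lower. PLAU itself was called higher in S134A-GR cells under vehicle, at 86655 ± 1355 against 67744 ± 2921 normalized counts in wt-GR cells. Under TGFβ1 it was called lower, at 129991 ± 4894 against 147534 ± 4055. The TGFB1 call was lost without wt-GR vehicle replicate 2 or wt-GR TGFβ1 replicate 1, with adjusted p-values up to 0.107. With no trend in the fit, the calls between the responses fell from 2 to 1. Limma called 0 higher, as did edgeR and DESeq2, and at an unadjusted p under 0.05 limma called 1 (CXCL8).

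**Figure D5:**
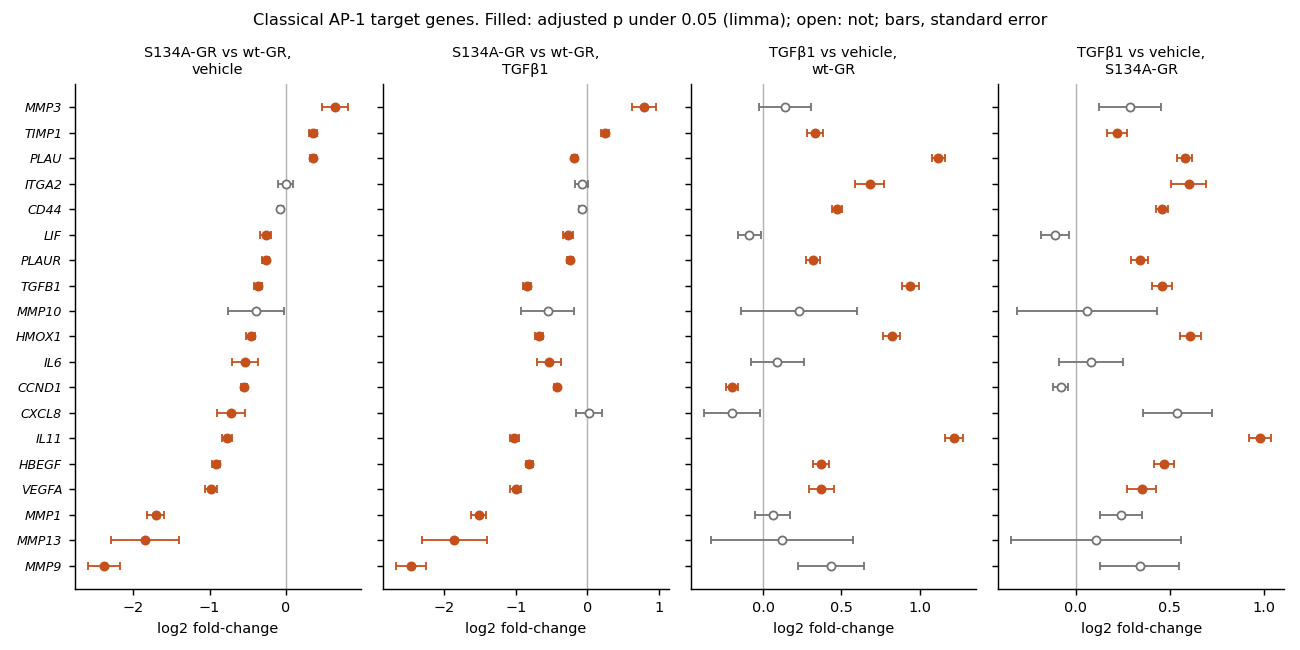
Log2 fold-changes (points) with standard errors (bars) of classical AP-1 target genes in 4 comparisons (1 of the 20 is not drawn), ordered by the difference between the lines under vehicle and filled where the limma adjusted p was under 0.05. MMP9 (−2.39), MMP13 (−1.85) and MMP1 (−1.71) lie lowest there, and IL11 rises with TGFβ1 in both lines (1.22 and 0.98); the horizontal scales differ between panels.

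Of 25 kinases and regulators upstream of AP-1, under vehicle S134A-GR cells had 12 lower and 2 higher (median −0.102 against 0.019 over all genes) and 10 lower and 2 higher under TGFβ1 (median −0.06 against 0.012). Of all genes, 26.5% were lower and 25.0% higher under vehicle, and 25.7% and 23.1% under TGFβ1. The 14 calls under vehicle fell to 7 without S134A-GR vehicle replicate 1, and to 9 without replicate 2 or with no trend in the fit. RPS6KA3, an ERK-activated kinase, differed by −0.52 and −0.31, MEF2D by −0.35 and −0.34, and SRF, which drives immediate-early promoters, by −0.24 and −0.31. FBXW7, which targets JUN for degradation, differed by 0.33 and 0.29. MKL2 differed by 0.32 and 0.46, and its vehicle call was lost when any of 5 libraries (the S134A-GR vehicle replicates, and wt-GR vehicle replicates 2 and 3) was left out. With TGFβ1, 6 rose and 2 fell in wt-GR cells and 6 rose and 3 fell in S134A-GR cells, with medians of 0.021 and 0.028 against −0.005 and −0.01 over all genes, of which 11.2% and 10.0% rose and 9.82% and 8.69% fell. ELK3 rose by 0.35 and 0.43, MKL1 by 0.44 and 0.38 and MAP2K1, the ERK kinase MEK1, by 0.30 and 0.24, while RPS6KA1 changed by −0.23 and −0.22. Between the responses 0 of the 25 were called by limma, edgeR and DESeq2. Limma at an unadjusted p under 0.05 called 1 (RPS6KA3), and without wt-GR vehicle replicate 3 limma called 1.

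Among 27 bZIP partners of the wider family, under vehicle S134A-GR cells had 6 higher and 10 lower, and under TGFβ1 7 and 10, with medians of 0.014 and 0.017 against 0.019 and 0.012 over all genes. Of all genes, 25.0% were higher and 26.5% lower under vehicle, and 23.1% and 25.7% under TGFβ1. CREM was higher (0.92 and 0.87) and NFE2L3 (−0.86 and −0.84) lower under both treatments, and so was ATF2, a JUN partner (−0.62 and −0.51). BATF differed by 0.49 under vehicle, which was not called, and by 0.70 under TGFβ1, a call that was lost without wt-GR TGFβ1 replicate 3 or S134A-GR TGFβ1 replicate 1 (adjusted p up to 0.0636 by limma). With TGFβ1, 5 rose and 4 fell in wt-GR cells and 7 rose and 3 fell in S134A-GR cells (medians 0.016 and 0.019 against −0.005 and −0.01), where 11.2% and 10.0% of all genes rose and 9.82% and 8.69% fell. The latter count of 10 fell to 6 without S134A-GR vehicle replicate 2 or S134A-GR TGFβ1 replicate 1. MAF rose by 1.41 in wt-GR cells and CEBPD changed by −0.63. In S134A-GR cells these were 0.53 and −0.47, calls that were lost without S134A-GR vehicle replicate 2 or 3 or S134A-GR TGFβ1 replicate 1 or 2 (adjusted p up to 0.121 and 0.0827 by limma). MAFF rose by 0.29 in wt-GR and 0.43 in S134A-GR cells. BACH1 changed by 0.13 in wt-GR cells, which was not called, and rose by 0.43 in S134A-GR cells. MAFK rose by 0.35 and 0.30, and BACH2 changed by −0.36 and −0.31. Leaving out wt-GR vehicle replicate 2 or wt-GR TGFβ1 replicate 2 ended the wt-GR call of BACH2 (adjusted p up to 0.0723 by limma). In S134A-GR cells the BACH2 call was lost without S134A-GR vehicle replicate 2 or 3 or any S134A-GR TGFβ1 replicate, and the MAFK call without S134A-GR vehicle replicate 1 or 2 or S134A-GR TGFβ1 replicate 2 or 3 (adjusted p up to 0.123 and 0.0916 by limma). Between the responses 0 were called by limma and edgeR and 2 by DESeq2 (BACH1 and MAF, which also had unadjusted p-values under 0.05 by limma), and 1 by limma without wt-GR vehicle replicate 3.

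Other immediate-early genes, like FOS and JUNB, respond fast to stimuli, and a response that was over before 6 h was not measured. Among 24 of them (25 listed), under vehicle S134A-GR cells had 9 lower and 4 higher (median −0.005 against 0.019). Under TGFβ1 13 were lower and 4 higher (median −0.285 against 0.012). Across all genes the shares were 26.5% lower and 25.0% higher under vehicle, and 25.7% and 23.1% under TGFβ1. RHOB, a small GTPase, was at 2540 ± 148 (SD, n = 3) normalized counts in wt-GR and 1071 ± 16.9 in S134A-GR vehicle libraries (log2 fold-change −1.24 under vehicle and −1.50 under TGFβ1). NR4A2 differed by −0.80 and −0.88, CYR61 by −0.73 and −0.57, and IER2 by −0.37 and −0.72. NR4A3 differed by 0.05 under vehicle, which was not called, and by −0.77 under TGFβ1. The latter call was lost without wt-GR TGFβ1 replicate 2 (adjusted p = 0.0687 by limma). With TGFβ1, 10 rose and 3 fell in wt-GR cells and 10 rose and 4 fell in S134A-GR cells (medians 0.149 and 0.068 against −0.005 and −0.01), where 11.2% and 10.0% of all genes rose and 9.82% and 8.69% fell. SGK1 rose by 1.22 and 1.07 and GADD45B by 0.85 and 0.80 in the 2 lines, and IER2 by 0.61 and 0.26. KLF2 changed by −0.50 in wt-GR and −0.76 in S134A-GR cells, and NR4A2 by −0.57 and −0.65, all called. The wt-GR call was lost without wt-GR vehicle replicate 2 or wt-GR TGFβ1 replicate 2 for KLF2 (adjusted p up to 0.0621 by limma) and without wt-GR vehicle replicate 1 or wt-GR TGFβ1 replicate 3 for NR4A2 (up to 0.0795). The S134A-GR call of NR4A2 was lost without S134A-GR vehicle replicate 1 (adjusted p = 0.057 by limma). EGR2 under vehicle was higher in S134A-GR cells (0.66) and rose with TGFβ1 in wt-GR cells (0.82), as FOSB did, while −0.15 under TGFβ1 and 0.00 in S134A-GR cells were not called, and both EGR2 calls were lost without wt-GR vehicle replicate 2. The first was also lost without S134A-GR vehicle replicate 1 and the second without wt-GR TGFβ1 replicate 3 (adjusted p up to 0.0691 by limma). The difference of the responses called 0 of the 24 by limma and edgeR and 2 by DESeq2 (KLF6 and IER2). Limma at an unadjusted p under 0.05 called 9, of which 7 were lower, and 1 after adjustment without wt-GR vehicle replicate 3.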

How the data were processed

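MDA-MB-231 RNA was sequenced as paired-end mRNA libraries (12, in 4 groups of 3, grouped by the labels). The authors used Trimmomatic for trimming, HISAT2 for alignment (hg38) and featureCounts for counting. The submitters' processing notes also name FastQC 0.11.7 and DESeq2 1.22.2. The deposited values are a signal, counts divided by a DESeq2 size factor for each library. The annotation and the strand setting are not given in the sources used here. Whole reads were recovered from the step of each library (100% of values within 0.01 of a whole number). Genes with at least 10 recovered reads in all were fitted on log2(value + 1) by limma 3.58.1 in R 4.3.3, with 4 group means, empirical Bayes with a trend and Benjamini-Hochberg adjustment. The added 1 understates the change of low genes. Replicates varied beyond counting error (chi-square over its degrees of freedom, 9.06 to 46.2). The fits were tested on simulated data for TGFβ1 against vehicle in wt-GR cells only. The difference of the responses was not tested that way.

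All 9 members, the edited gene, up to 4 called genes with the largest change per list and comparison, and 3 genes of like pattern per member with a range of at least 1 were named. Of the genes this rule names, 2 are counted in their lists but not reported here. HOOK2, MMP3, MMP10 and TIMP1 were named after their values were seen. The members and lists were chosen with earlier results of these data known. Alternatives were pseudocounts of 0.5 and 16, edgeR's filterByExpr, no filter beyond 1 read, TMM scaling, edgeR 4.0.16 (quasi-likelihood) and DESeq2 1.42.0 on the recovered reads, a replicate block, only the groups compared, no trend, and each library left out. Transcript length in place of merged exon length was chosen after seeing the data.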

Additional observations from a re-analysis of the deposited data

Results flagged for a closer look

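The TGFβ1 response of JUNB differed between the lines by the test of the difference itself. It was −0.92 on the log2 scale, S134A-GR minus wt-GR (SE 0.105, n = 3 libraries per group, adjusted p = 0.00164 by limma). JUNB rose in both lines, and every wt-GR TGFβ1 library (lowest 9968 normalized counts) was above every S134A-GR TGFβ1 library (highest 6233).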

How the results depend on the processing

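The number of AP-1 genes called stayed within 1.5 times its main value in 108 of 109 recomputed counts. The exception was the difference of the responses, where DESeq2's Wald test called 2 (JUNB and JUND) in place of 1. Of 981 recomputed log2 fold-changes of the 9 genes no called value changed sign, 2 lost their call (both for FOSB with TGFβ1 in wt-GR cells) and 2 gained one (JUNB between the lines under vehicle, and JUND in the difference of the responses). Another 3 moved without a call, each with 1 library left out. JUNB between the lines under vehicle was −0.00 without wt-GR vehicle replicate 1, JUND with TGFβ1 in wt-GR cells was −0.07 without the same library, and JDP2 with TGFβ1 in S134A-GR cells was −0.21 without S134A-GR vehicle replicate 3. Values near 0 that were called in no setting did change sign, among them those of FOS, JUND and JDP2 with TGFβ1 in wt-GR cells, ATF3 between the lines under vehicle and FOSL1 in the difference of the responses. Of 436 recomputed list counts 13 moved by more than 1.5 times. Leaving out 1 library at a time gave 6 to 7 calls between the lines under vehicle, 4 under TGFβ1, 4 to 5 and 5 with TGFβ1 in wt-GR and S134A-GR cells, and 1 for the difference. Libraries with the same replicate number did not deviate together (mean r 0.0009 over 18 pairs and 12468 genes, −0.155 to 0.154, against −0.0003 for different numbers). This gave no sign of pairing, but it cannot show that libraries with the same number were handled apart. With the number as a block, the calls were 6, 4, 5, 5 and 1 in the 5 comparisons, the same counts as without it. With canonical transcript length, 27 of 36 family levels and shares moved by more than 1 SD. The share of JUNB in the JUN family under TGFβ1 was then 25.4% in wt-GR and 16.5% in S134A-GR cells. Among the 9 genes FOSB had the fewest reads in a library (24).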
